A study of Gnathonemus petersii with 18 samples.

Results

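The axon guidance ligand and receptor genes were followed across 3 tissues of Gnathonemus petersii, the elephantnose fish, which senses its surroundings with weak electric fields. Members were matched by gene symbol: every gene of the table whose name begins as a class 3 to 7 semaphorin, plexin, neuropilin, Eph receptor, ephrin, Robo, Slit, netrin, netrin-G, Unc5, Dcc or Rgm gene. This rule was set with earlier results of these data known. The rule found 42 of 28031 genes, and 41 of them passed the filter on low counts and were tested. The gene left out was sema3d, with 142 counts in all. Among the matches, unc50 shares only letters with the Unc5 receptors and codes for a membrane protein of the Golgi, so 41 of the 42 are guidance genes. Genes that carry only a locus identifier, 17658 in the table, could not match, so each family holds only the copies that the annotation names.

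RNA came from the trigeminal ganglion, the spinal cord and the cerebellum, with 6 libraries per tissue and 18 in all, and per the labels the tissues were taken from 6 individual fish. The cerebellum libraries carry the tissue label cerebellum, while their titles and column names say brain. They are called cerebellum here after the tissue label. No treatment, genotype, sex or age is given for any group. By its title, the study asks whether tactile acuity has an early origin in vertebrate evolution. The comparisons set the ganglion against each central tissue and the spinal cord against the cerebellum, and any pair of these comparisons shares the 6 libraries of a tissue.

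Growing axons steer by cues that attract or repel them. Secreted class 3 semaphorins act through a neuropilin that binds the ligand and a plexin that signals into the cell, while most membrane-bound semaphorins bind plexins directly. Slits are secreted repellents read by Robo receptors. Netrin-1 attracts through Dcc and repels through Unc5 receptors. Ephrins and Eph receptors both sit in membranes and signal on contact in either direction. In the adult nervous system many of these genes stay expressed in neurons, glia and vessels, where they are known for roles in synapses, vessel growth and the response to injury.

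Total counts ran from 10413024 to 14183733 per ganglion library, 10346375 to 13379441 per spinal cord library and 10953416 to 17587837 per cerebellum library. Summed over each list, defining markers were highest in the tissue that the tissue labels name. A list of sensory neuron genes such as prph and avil summed to 945 to 1762 CPM per ganglion library, 94.5 to 108 in the spinal cord and 8.71 to 16.4 in the cerebellum. Of its 7 tested genes, 7 were higher in the ganglion than in the cerebellum. Against the spinal cord 4 were higher in the ganglion and 3 were not called. Hox and motor neuron genes summed to 0.189 to 1.30 CPM in the ganglion, 1012 to 1374 in the spinal cord and 0 to 1.46 in the cerebellum, and cerebellar neuron genes to 220.1 to 315, 396 to 542 and 10608 to 15452 CPM in the same order. Of 12 tested cerebellar neuron genes, 11 were lower in the ganglion than in the cerebellum and 1 was higher. For spinal cord over cerebellum 10 were lower, 1 was higher and 1 was not called. Connective tissue genes, 7 of 7 tested members higher in the ganglion than in either other tissue, summed to 552 to 2138 CPM there, 84.6 to 243 in the spinal cord and 28.2 to 65.8 in the cerebellum. Ganglion replicates 2 and 5 stood apart from the other ganglion libraries, and results that rest on them are also given without them. CPM are counts relative to the library size after TMM scaling, and a level is written as the median over 6 libraries with the lowest and highest library in parentheses. Calls of higher or lower needed an edgeR quasi-likelihood adjusted p (Benjamini-Hochberg, over 20691 genes) under 0.05 with at least a 2-fold difference. Fold changes are on the log2 scale with an approximate SE.

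Levels of different genes can be compared per unit of gene length, which the authors' TPM values allow. At a median of at least 10 TPM stood 10 of the 42 genes in the ganglion, 12 in the spinal cord and 14 in the cerebellum. Below 1 TPM were 12 in the ganglion, 4 in the spinal cord and 6 in the cerebellum. Among guidance genes, the ganglion had its highest levels in sema3b at 35.3 TPM (16.5 to 41.8), efnb1 at 29.6 TPM (20.6 to 131) and ntng2 at 27.1 TPM (9.24 to 36.8). The leading genes of the spinal cord were slit2 at 25.6 TPM (21.5 to 30.4), plxnb1 at 23.4 TPM (17.2 to 32.5) and sema3c at 23.1 TPM (18.9 to 32.6), with ranges that overlapped. Those of the cerebellum were plxnb2 at 81.4 TPM (73.7 to 92.5), ntng2 at 50.7 TPM (39.95 to 60.6) and robo3 at 34.0 TPM (25.1 to 37.4), and the range of plxnb2 lay above those of the other 2.

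**Figure D1:**
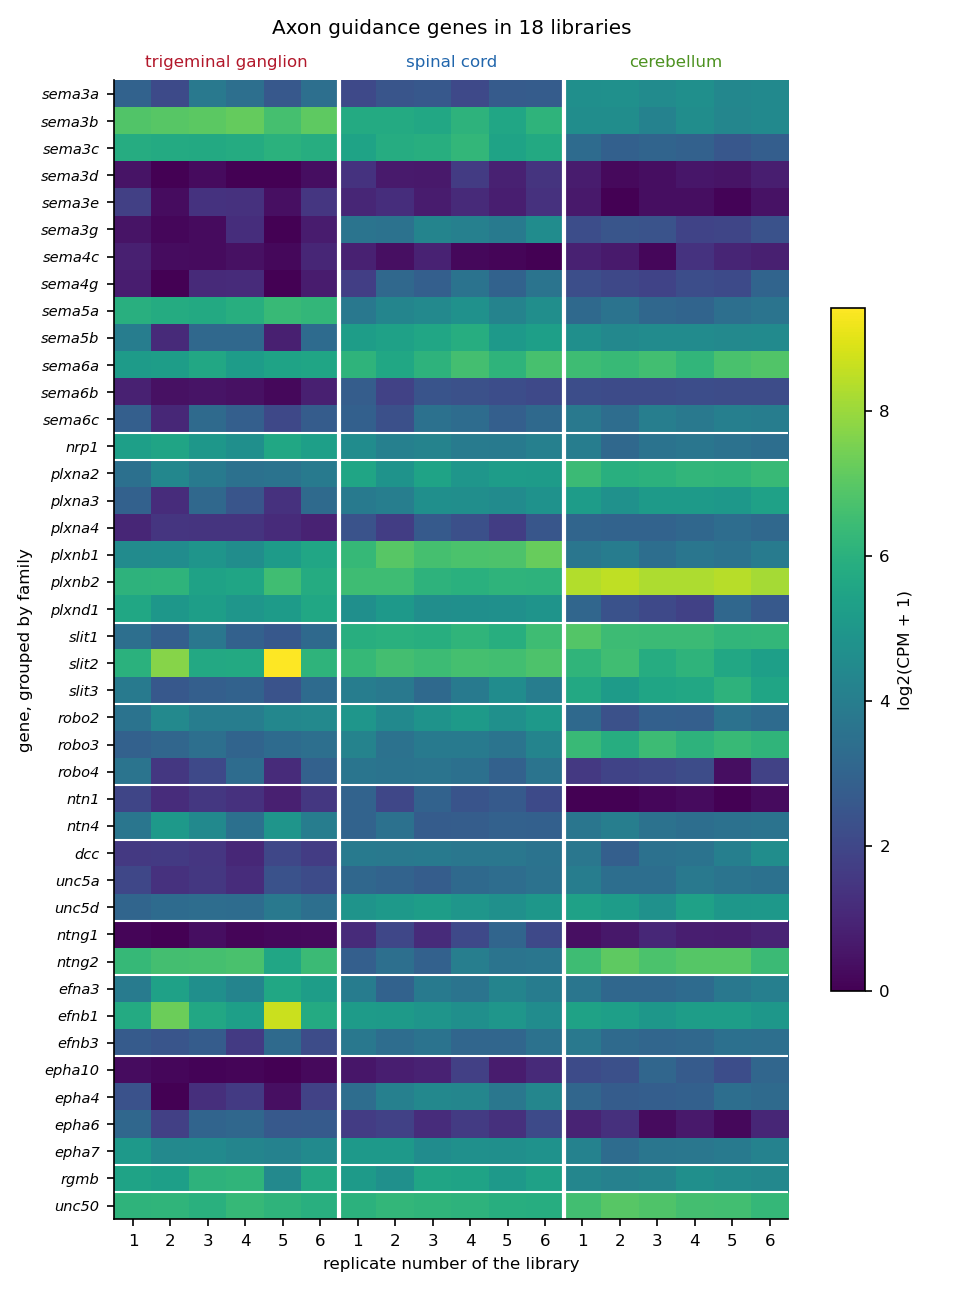
Level of each of the 42 genes (rows, grouped by family) in the 18 libraries (columns, by tissue and replicate number), as log2(CPM + 1). Within their rows, the cells of slit2 and efnb1 are brightest in ganglion replicates 2 and 5. Those of plxnb2 are brightest in all 6 cerebellum libraries, and those of ntn1 are darkest there.

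More of these genes were lower than higher in the ganglion against either central tissue. Against the cerebellum 20 of 41 tested genes were lower in the ganglion, where 22.3% of all tested genes were, and 15 were higher, where 29.6% of all were, so that 35 of 41 differed beside 51.9% of all. Against the spinal cord 16 were lower in the ganglion, beside 17.3% of all genes, and 8 were higher, beside 14.5%, so that 24 of 41 differed beside 31.7% of all. In the comparison of spinal cord with cerebellum 14 were higher in the spinal cord, beside 28.9% of all genes, and 8 were lower, beside 16.3%, so that 22 of 41 differed beside 45.2% of all. The median fold change of the 41 was -0.95 for ganglion over cerebellum, with all tested genes at 0.07. For ganglion over spinal cord it was -0.77, with all genes at -0.01, and for spinal cord over cerebellum 0.16, with all genes at 0.08. On the log2(TPM + 1) scale, where the median of all genes itself lay at -0.52 for ganglion over cerebellum, 5 of 38 members tested were higher and 21 lower in that comparison by limma, beside 15.2% and 35.0% of 20294 genes. That fit also differed in its scaling and its filter on low values, and sema3e, ntng1 and sema4c were not tested in it. On the same scale the median of all genes was -0.37 for ganglion over spinal cord and -0.14 for spinal cord over cerebellum. Adding 1 to TPM shrinks the fold changes of genes at low TPM. The part of this, or of the shift of all genes, in the calls lost there was not tested.

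Sorting by the tissue that differed from both others gave 14 genes lower in the ganglion than in both central tissues, 34.1% of the 41 where 9.08% of all tested genes were. They were the Dcc and Unc5 genes dcc, unc5a and unc5d, the plexins plxna2, plxna3 and plxna4, the semaphorins sema3g, sema4g, sema5b and sema6b, and slit1, ntng1, epha4 and epha10. Higher in the ganglion than in both were 6 (10.6% of all genes): sema3b, sema5a, nrp1, efna3, efnb1 and epha6. Higher in the spinal cord than in both were 5 (8.12% of all): sema3g, plxnb1, ntn1, ntng1 and epha4. Higher in the cerebellum than in both were 7 (11.6% of all): sema3a, plxna2, plxna4, plxnb2, slit3, robo3 and epha10. Of these, plxna2 and plxna4 lay at the 2-fold limit against the spinal cord. Lower in the cerebellum than in both were 10, or 24.4%, beside 20.7% of all genes, and lower in the spinal cord than in both was ntng2 alone, 2.44% beside 2.27%. The genes called in none of the comparisons were efnb3, sema4c and unc50, 7.32% of the 41 beside 33.5% of all. These tissues are mixtures, and fewer cells of a type cannot be told apart from less RNA per cell. Astroglia and radial glia genes, 5 in the table and none at 0, summed to 1442 to 2330.1 CPM in the ganglion, 6489.9 to 8280.2 in the spinal cord and 2353 to 3820.4 in the cerebellum. Oligodendrocyte genes, 9 in the table and none at 0, summed to 649 to 1054, 2492 to 2896 and 697 to 999 CPM in the same order, and the part of central glia in the counts above was not tested. Without ganglion replicates 2 and 5 the count higher in the ganglion than in both was 3 in place of 6, and on the log2(TPM + 1) scale it was 1. The shares of all genes in these settings were not computed.

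**Figure D2:**
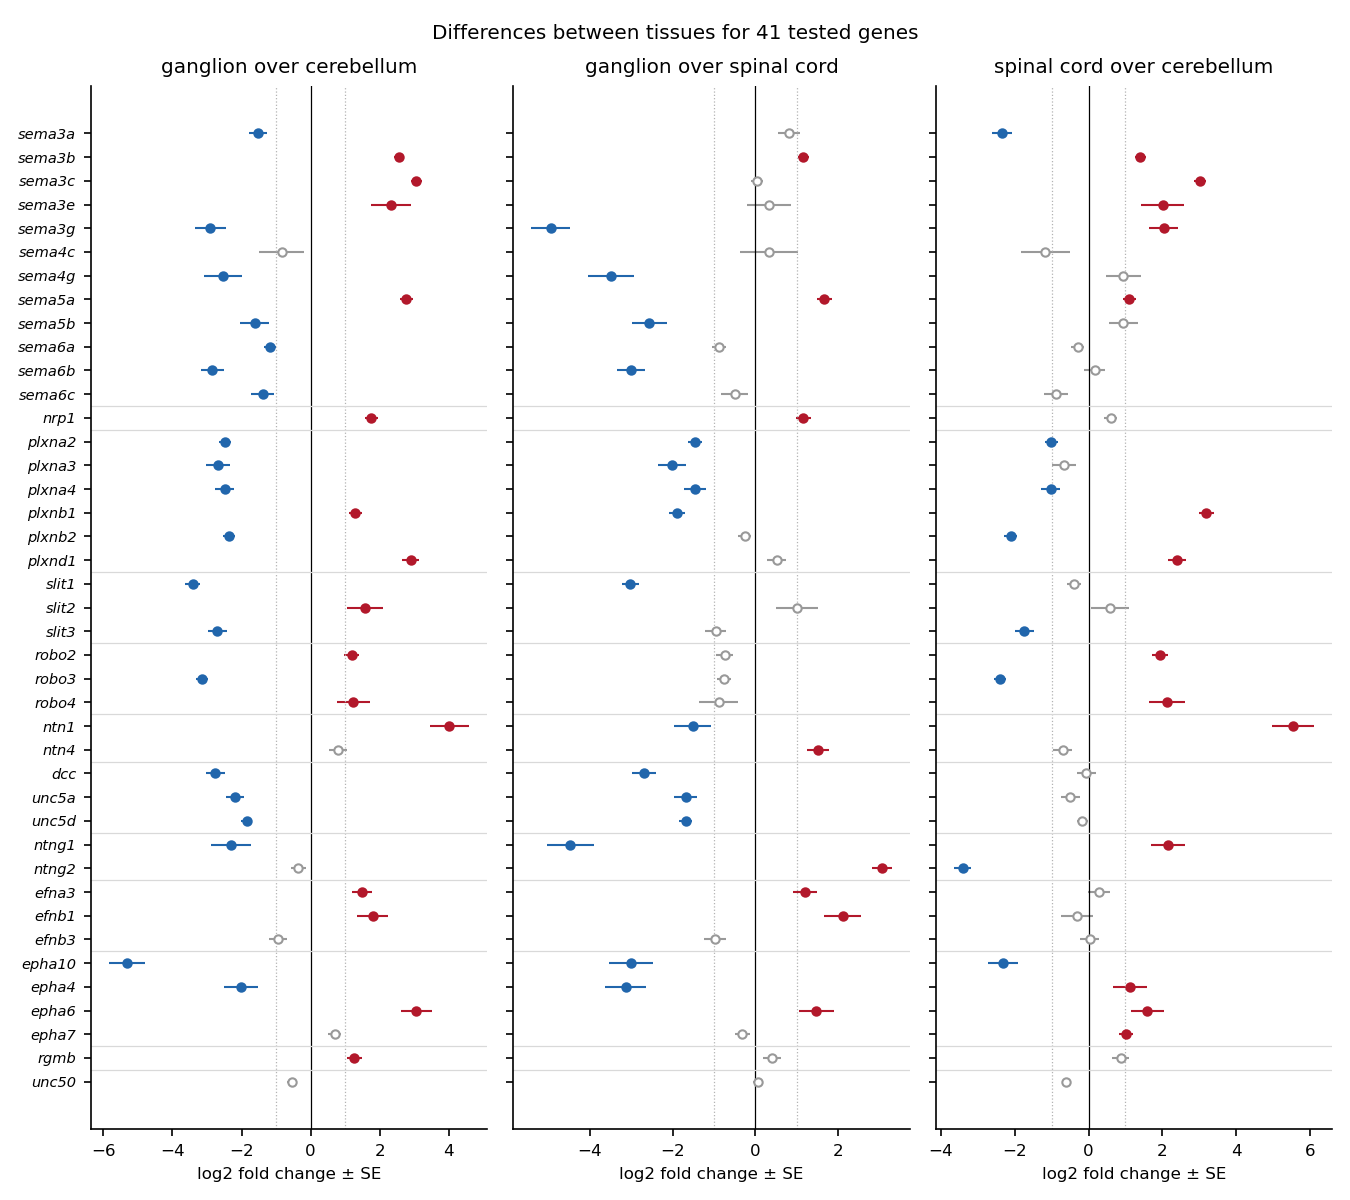
Log2 fold change with its approximate SE for the 41 tested genes (rows, by family) in each comparison (panels), filled red where called higher, filled blue where called lower and open grey where not called, with dotted lines at a 2-fold difference. All 3 dcc and unc5 genes lie left of the dotted line in both ganglion panels, while the plexins divide.

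Secreted semaphorins divided between the tissues. The gene sema3b, a class 3 semaphorin, stood at 129 CPM (98.6 to 147) in the ganglion, 53.5 CPM (47.3 to 68.4) in the spinal cord and 22.3 CPM (17.3 to 23.7) in the cerebellum. Every ganglion library lay above every spinal cord library, and each of those above every cerebellum library. Its fold change was 2.56 ± 0.14 for ganglion over cerebellum (edgeR adjusted p = 7.62e-12), 1.15 ± 0.14 over spinal cord (edgeR adjusted p = 7.37e-07) and 1.41 ± 0.14 for spinal cord over cerebellum (edgeR adjusted p = 3.8e-08). With log2(TPM + 1) values the ganglion over spinal cord value was 0.71 and not called, where the median of all genes was -0.37.

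A different order held for sema3c, with 55.0 CPM (52.0 to 64.0) in the ganglion, 53.6 CPM (43.5 to 74.9) in the spinal cord and 6.49 CPM (4.94 to 8.88) in the cerebellum. The ganglion and spinal cord overlapped, and both lay wholly above the cerebellum. It was higher than in the cerebellum by 3.07 ± 0.16 in the ganglion (edgeR adjusted p = 4.31e-12) and by 3.03 ± 0.16 in the spinal cord (edgeR adjusted p = 1.11e-11), while ganglion over spinal cord was 0.04 ± 0.15 and not called.

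The classical repellent sema3a, which collapses growth cones through neuropilin-1 and class A plexins, was highest in the cerebellum. It stood at 8.27 CPM (3.31 to 12.9) in the ganglion, 4.84 CPM (3.21 to 5.63) in the spinal cord and 23.6 CPM (19.5 to 25.8) in the cerebellum, whose libraries lay above all others. The difference of ganglion over cerebellum was -1.52 ± 0.26 (edgeR adjusted p = 3.15e-05) and spinal cord over cerebellum -2.34 ± 0.27 (edgeR adjusted p = 3.19e-07). The difference of ganglion over spinal cord was 0.82 ± 0.26 and not called, and it was 1.12 and called without ganglion replicates 2 and 5 (edgeR adjusted p = 0.000122).

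Lowest in the ganglion was sema3g, which in mouse is known from vessels. Its level was 0.310 CPM (0 to 1.38) in the ganglion, 14.9 CPM (10.6 to 23.0) in the spinal cord and 3.93 CPM (2.73 to 4.64) in the cerebellum, with no overlap between any pair of tissues. Its fold change of ganglion over spinal cord was -4.94 ± 0.47 (edgeR adjusted p = 4.12e-08), the largest negative value among the 41 genes in that comparison, and ganglion over cerebellum -2.90 ± 0.45 (edgeR adjusted p = 1.22e-05). Spinal cord over cerebellum was 2.04 ± 0.39 (edgeR adjusted p = 0.000138). The rarer sema3e, whose protein binds plexin D1 without a neuropilin, had 1.57 CPM (0.236 to 2.44) in the ganglion, 1.09 CPM (0.658 to 1.51) in the spinal cord and 0.264 CPM (0 to 0.563) in the cerebellum. It was called in the comparisons with the cerebellum, at 2.34 ± 0.58 for the ganglion (edgeR adjusted p = 0.0014) and 2.01 ± 0.58 for the spinal cord (edgeR adjusted p = 0.00531). The ganglion overlapped the cerebellum, with 5 of 6 ganglion libraries above the cerebellum mean, while the spinal cord did not. These values rest on 198 counts in all, of which 24 were in the cerebellum libraries. The untested sema3d had 11 counts over the 6 ganglion libraries, 90 over the spinal cord libraries and 41 over the cerebellum libraries.

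The transmembrane semaphorins of class 5 ran in opposite directions between the ganglion and the central tissues. Both carry thrombospondin repeats. The gene sema5a stood at 59.1 CPM (52.2 to 80.6) in the ganglion, 19.7 CPM (12.6 to 26.1) in the spinal cord and 9.10 CPM (7.31 to 11.2) in the cerebellum, with the ganglion libraries above all others and the spinal cord libraries above the cerebellum. It was higher in the ganglion by 2.77 ± 0.19 than in the cerebellum (edgeR adjusted p = 1.25e-10) and by 1.66 ± 0.18 than in the spinal cord (edgeR adjusted p = 2.33e-07). Its relative sema5b had 8.18 CPM (0.783 to 14.9) in the ganglion, 40.05 CPM (32.9 to 58.0) in the spinal cord and 22.03 CPM (19.96 to 24.8) in the cerebellum, again without overlap but with the ganglion lowest. Relative to spinal cord, the ganglion value was -2.56 ± 0.43 (edgeR adjusted p = 4.64e-05) and ganglion over cerebellum -1.62 ± 0.41 (edgeR adjusted p = 0.00174). Spinal cord over cerebellum was positive for both genes. For sema5a it was 1.11 ± 0.18 and called (edgeR adjusted p = 2.36e-05), a call lost on the log2(TPM + 1) scale. For sema5b it was 0.94 ± 0.40 (edgeR adjusted p = 0.0446), short of 2-fold, and 1.01 and called without spinal cord replicate 5.

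All 3 class 6 semaphorins, membrane proteins that bind class A plexins, were lower in the ganglion than in the cerebellum. The gene sema6a, whose mean TPM over all 18 libraries was the highest of the semaphorins though sema3b led in the ganglion and sema3c in the spinal cord, stood at 40.2 CPM (35.4 to 49.3) in the ganglion, 68.9 CPM (48.3 to 102) in the spinal cord and 91.2 CPM (73.1 to 114) in the cerebellum. Ganglion and cerebellum did not overlap, while the spinal cord overlapped each by at least 1 library. For ganglion over cerebellum the fold change was -1.17 ± 0.17 for sema6a (edgeR adjusted p = 5.46e-06), -2.85 ± 0.33 for sema6b (edgeR adjusted p = 2.52e-07) and -1.38 ± 0.34 for sema6c (edgeR adjusted p = 0.00121). Against the spinal cord sema6b was lower in the ganglion at -3.01 ± 0.33 (edgeR adjusted p = 2.94e-07; as log2(TPM + 1) it was -0.98 and not called), and sema6a at -0.88 ± 0.17 and sema6c at -0.51 ± 0.34 were not called. As log2(TPM + 1) the sema6a value was -1.18 and called lower. For sema6b the level was 0.376 CPM (0.157 to 0.841) in the ganglion, 3.86 CPM (2.60 to 5.84) in the spinal cord and 3.53 CPM (3.44 to 3.73) in the cerebellum, and for sema6c 5.95 CPM (1.06 to 8.50) in the ganglion, 7.37 CPM (3.87 to 10.5) in the spinal cord and 14.1 CPM (9.29 to 15.9) in the cerebellum. Of these only sema6b separated the ganglion from both other tissues. In class 4, sema4g had 0.667 CPM (0 to 1.22) in the ganglion, 7.50 CPM (2.34 to 11.3) in the spinal cord and 3.51 CPM (2.72 to 7.19) in the cerebellum and was lower in the ganglion than in both, at -3.48 ± 0.56 against the spinal cord (edgeR adjusted p = 3.04e-05) and -2.54 ± 0.55 against the cerebellum (edgeR adjusted p = 0.000373). The rare sema4c, with 134 counts in all, was called in none of the comparisons with all 18 libraries. Without ganglion replicate 1 and spinal cord replicates 1, 3 and 5 together, spinal cord over cerebellum was -2.35 and called (edgeR adjusted p = 0.035).

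The receptors of these ligands also divided. The only neuropilin named in the table, nrp1, which binds class 3 semaphorins and also VEGF, stood at 38.9 CPM (24.6 to 47.9) in the ganglion, 16.3 CPM (13.9 to 22.8) in the spinal cord and 10.9 CPM (8.09 to 15.01) in the cerebellum. No ganglion library overlapped either other tissue. It was higher in the ganglion by 1.76 ± 0.19 than in the cerebellum (edgeR adjusted p = 9.22e-08) and by 1.16 ± 0.19 than in the spinal cord (edgeR adjusted p = 3.09e-05). Without ganglion replicates 2 and 5 the difference from the spinal cord was 0.99, just short of 2-fold, and on the log2(TPM + 1) scale both calls were lost.

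The class A plexins, the signalling partners of nrp1, had the opposite pattern in all 3 named genes. For plxna2, which in mouse also serves as a receptor of semaphorin 6A, the level was 12.4 CPM (10.2 to 19.4) in the ganglion, 35.5 CPM (27.7 to 45.4) in the spinal cord and 71.7 CPM (60.0 to 85.9) in the cerebellum. For plxna3 it was 5.64 CPM (1.30 to 8.59) in the ganglion, 23.3 CPM (13.5 to 26.8) in the spinal cord and 34.1 CPM (25.9 to 40.6) in the cerebellum. The lowest of the family, plxna4, had 1.46 CPM (0.849 to 1.77) in the ganglion, 4.16 CPM (2.24 to 5.36) in the spinal cord and 7.60 CPM (7.02 to 9.45) in the cerebellum. Every ganglion library lay below every library of the other tissues for each of the 3 genes. For ganglion over cerebellum the values were -2.47 ± 0.18 for plxna2 (edgeR adjusted p = 2.65e-10), -2.69 ± 0.35 for plxna3 (edgeR adjusted p = 1.26e-06) and -2.49 ± 0.28 for plxna4 (edgeR adjusted p = 1.46e-07). Ganglion over spinal cord was -1.47 ± 0.17, -2.01 ± 0.35 and -1.46 ± 0.27 in the same order, with edgeR adjusted p = 6.71e-07, 6.73e-05 and 0.000169. On the log2(TPM + 1) scale the plxna4 call for ganglion over spinal cord was lost, and the other 5 ganglion calls were kept. Spinal cord over cerebellum lay at the 2-fold limit for plxna2, at -1.01 ± 0.17 (edgeR adjusted p = 2.99e-05). It did so too for plxna4, at -1.03 ± 0.26 (edgeR adjusted p = 0.00169). That call was lost for plxna2 in 5 fits that left out 1 library each. For plxna4 it was lost without spinal cord replicate 2 or 5, at -0.92 and -0.91, and on the log2(TPM + 1) scale, at -0.80.

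Among the class B and D plexins, plxnb2, which in mouse is needed for the growth and migration of cerebellar granule cell precursors, stood at 60.3 CPM (42.5 to 92.5) in the ganglion, 68.2 CPM (62.7 to 90.0) in the spinal cord and 316 CPM (282 to 363) in the cerebellum. All cerebellum libraries lay far above the others, which overlapped. Ganglion over cerebellum was -2.37 ± 0.18 (edgeR adjusted p = 4.52e-10) and spinal cord over cerebellum -2.11 ± 0.17 (edgeR adjusted p = 3.36e-09). The semaphorin 4D receptor gene plxnb1 instead peaked in the spinal cord, with 26.4 CPM (22.6 to 46.3) in the ganglion, 108 CPM (79.3 to 148) in the spinal cord and 12.1 CPM (9.54 to 14.5) in the cerebellum and no overlap between any pair. It was lower in ganglion than in spinal cord libraries, at -1.90 ± 0.19 (edgeR adjusted p = 9.59e-08) and higher in the ganglion than in the cerebellum at 1.29 ± 0.19 (edgeR adjusted p = 6.02e-06), a call lost on the log2(TPM + 1) scale. Spinal cord over cerebellum was 3.19 ± 0.20 (edgeR adjusted p = 9.25e-11). The receptor of semaphorin 3E, plxnd1, had 36.6 CPM (30.3 to 48.2) in the ganglion, 25.5 CPM (24.0 to 32.7) in the spinal cord and 4.73 CPM (2.58 to 7.90) in the cerebellum. It was higher than in the cerebellum by 2.90 ± 0.25 in the ganglion (edgeR adjusted p = 3.88e-09) and by 2.38 ± 0.24 in the spinal cord (edgeR adjusted p = 7.2e-08). Its ligand gene sema3e was also higher in both, at low counts.

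**Figure D3:**
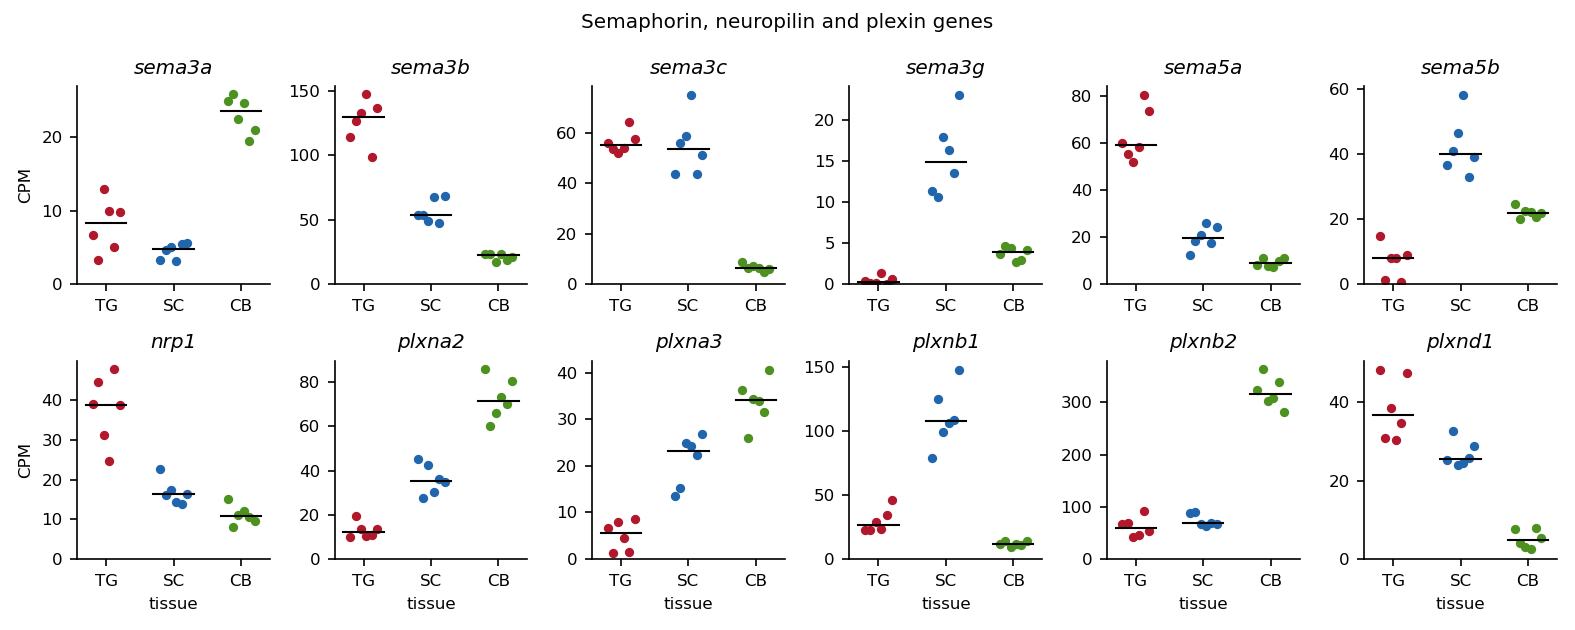
CPM of 12 semaphorin, neuropilin and plexin genes in each library (points) of the trigeminal ganglion (TG), spinal cord (SC) and cerebellum (CB), with the median as a bar, each axis starting at 0. The points of sema3b, sema5a and nrp1 are highest in the ganglion, those of sema3g, sema5b and plxnb1 in the spinal cord, and those of sema3a, plxna2 and plxnb2 in the cerebellum.

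Among the Slit ligands, slit1 was low in the ganglion and high in both central tissues. It stood at 7.48 CPM (5.01 to 12.5) in the ganglion, 60.5 CPM (58.3 to 88.3) in the spinal cord and 84.6 CPM (72.6 to 119) in the cerebellum. The highest ganglion library lay well below the lowest of either other tissue. The difference of ganglion over cerebellum was -3.42 ± 0.21 (edgeR adjusted p = 2.99e-11), ganglion over spinal cord -3.02 ± 0.21 (edgeR adjusted p = 3.65e-10), and spinal cord over cerebellum -0.40 ± 0.19 and not called. Its relative slit3 had 6.46 CPM (4.38 to 13.5) in the ganglion, 14.4 CPM (8.28 to 22.8) in the spinal cord and 47.8 CPM (35.1 to 67.9) in the cerebellum, where every library lay above the other tissues. Its fold change of ganglion over cerebellum was -2.70 ± 0.27 (edgeR adjusted p = 3.38e-08), spinal cord over cerebellum -1.74 ± 0.26 (edgeR adjusted p = 8.35e-06), and ganglion over spinal cord -0.96 ± 0.26 (edgeR adjusted p = 0.0043), just short of 2-fold. That last value was called without ganglion replicate 1 or 6 or spinal cord replicate 3, each left out alone, at -1.22, -1.02 and -1.09. It was also called without ganglion replicate 1 and spinal cord replicates 1, 3 and 5 together, at -1.15.

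The call for slit2 rested on 1 ganglion library. Its level was 66.5 CPM (50.8 to 686) in the ganglion, 94.9 CPM (78.3 to 109.7) in the spinal cord and 62.6 CPM (39.1 to 92.4) in the cerebellum. Ganglion replicate 5 had 686 CPM and replicate 2 had 209 CPM, while the other 4 ganglion libraries lay between 50.8 and 68.4 CPM, below every spinal cord library and within the range of the cerebellum. Relative to cerebellum, the ganglion value was 1.58 ± 0.52 (edgeR adjusted p = 0.0107) with 4 of 6 ganglion libraries above the cerebellum mean. It was 0.50 without replicate 5 (edgeR adjusted p = 0.146), -0.09 without replicates 2 and 5, and 0.93 with the replicate number as a block (edgeR adjusted p = 0.0962), and it was called under none of these. Ganglion over spinal cord was 1.00 ± 0.51 and not called (edgeR adjusted p = 0.112). That value was called without ganglion replicate 3, at 1.24 (edgeR adjusted p = 0.0456). Without replicates 2 and 5 it changed sign, to -0.67 (edgeR adjusted p = 0.00578), short of 2-fold.

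The Robo receptors fell into different patterns. The gene robo3, which in mouse lets commissural axons cross the midline, stood at 8.16 CPM (6.64 to 9.91) in the ganglion, 13.6 CPM (10.9 to 18.1) in the spinal cord and 76.3 CPM (57.7 to 86.4) in the cerebellum, with no overlap between any pair of tissues. Ganglion over cerebellum was -3.16 ± 0.17 (edgeR adjusted p = 5.21e-12) and spinal cord over cerebellum -2.39 ± 0.16 (edgeR adjusted p = 2.82e-10). The difference of ganglion over spinal cord was -0.77 ± 0.16 (edgeR adjusted p = 0.000586), short of 2-fold. The Slit receptor gene robo2 had 17.3 CPM (11.1 to 20.9) in the ganglion, 29.0 CPM (21.0 to 34.2) in the spinal cord and 7.37 CPM (4.04 to 10.7) in the cerebellum, again without overlap and with the cerebellum lowest. It was higher than in the cerebellum by 1.19 ± 0.22 in the ganglion (edgeR adjusted p = 6.91e-05; not called as log2(TPM + 1)) and by 1.94 ± 0.22 in the spinal cord (edgeR adjusted p = 2.83e-07).

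The endothelial receptor gene robo4 had 4.90 CPM (1.25 to 11.3) in the ganglion, 11.2 CPM (6.65 to 11.7) in the spinal cord and 2.67 CPM (0.282 to 3.52) in the cerebellum. Spinal cord over cerebellum was 2.13 ± 0.49 (edgeR adjusted p = 0.000827) with no overlap. Ganglion libraries ranged widely, and ganglion over cerebellum, 1.24 ± 0.49 (edgeR adjusted p = 0.0282, 4 of 6 ganglion libraries above the cerebellum mean), was not called without ganglion replicate 1 (0.91, edgeR adjusted p = 0.0967). It was likewise not called without ganglion replicate 4 or without cerebellum replicates 1 or 5, each left out alone, at 1.05, 1.18 and 0.97. Nor was it called on the log2(TPM + 1) scale, at 0.32, or without ganglion replicate 1 and spinal cord replicates 1, 3 and 5 together, at 0.91. Endothelial marker genes, 7 in the table and none at 0, summed to 102 to 212 CPM in the ganglion, 271 to 379.7 in the spinal cord and 182 to 221 in the cerebellum. For robo4 the fold change for ganglion over spinal cord was -0.89 ± 0.47, with overlap and not called (edgeR adjusted p = 0.122), while with the replicate number as a block it was -1.18 and called (edgeR adjusted p = 0.0209). As log2(TPM + 1) it was -1.07 and also called. The part of vessel content in the values of robo4 and sema3g was not tested.

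**Figure D4:**
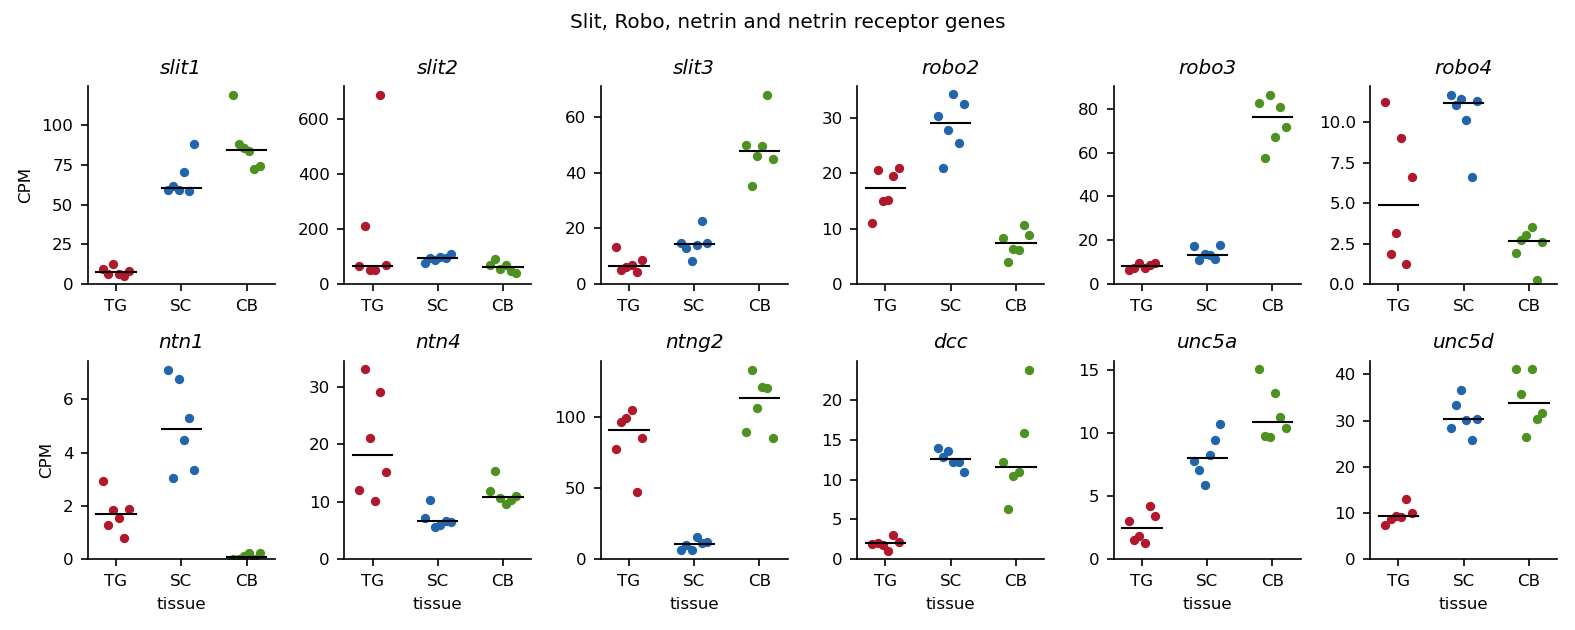
CPM of Slit, Robo, netrin and netrin receptor genes in each library (points) of the trigeminal ganglion (TG), spinal cord (SC) and cerebellum (CB), with the median as a bar, each axis starting at 0. For slit1, dcc, unc5a and unc5d all 6 ganglion points lie below all others, and 1 ganglion library of slit2 stands far above the rest.

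All 3 named receptors of netrin-1 were lower in the ganglion than in both central tissues. The attractive receptor gene dcc stood at 1.97 CPM (1.06 to 2.97) in the ganglion, 12.6 CPM (11.0 to 13.9) in the spinal cord and 11.6 CPM (6.28 to 23.8) in the cerebellum. The repulsive receptor gene unc5a had 2.44 CPM (1.30 to 4.23) in the ganglion, 7.99 CPM (5.83 to 10.7) in the spinal cord and 10.8 CPM (9.67 to 15.01) in the cerebellum. The most abundant of the family, unc5d, had 9.30 CPM (7.49 to 13.0) in the ganglion, 30.3 CPM (25.8 to 36.7) in the spinal cord and 33.8 CPM (26.6 to 41.3) in the cerebellum. For each gene the 6 ganglion libraries lay below all 12 central libraries, while spinal cord and cerebellum overlapped. For ganglion over cerebellum the values were -2.75 ± 0.29 for dcc (edgeR adjusted p = 6.31e-08), -2.19 ± 0.27 for unc5a (edgeR adjusted p = 7.33e-07) and -1.85 ± 0.16 for unc5d (edgeR adjusted p = 3.92e-09). For ganglion over spinal cord the values were -2.69 ± 0.29, -1.69 ± 0.27 and -1.68 ± 0.16 in the same order, with edgeR adjusted p = 2.05e-07, 3.39e-05 and 3.28e-08. None of the 3 was called between spinal cord and cerebellum, with -0.07 ± 0.26, -0.50 ± 0.26 and -0.16 ± 0.15.

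The ligand gene ntn1, which in vertebrate embryos is known from the floor plate of the spinal cord, had few counts in the cerebellum libraries. It stood at 1.70 CPM (0.783 to 2.94) in the ganglion, 4.89 CPM (3.05 to 7.09) in the spinal cord and 0.0662 CPM (0 to 0.216) in the cerebellum, and no pair of tissues overlapped. The counts behind these levels were 118, 359 and 9 over the 6 libraries of each tissue in that order. Spinal cord over cerebellum was 5.54 ± 0.57 (edgeR adjusted p = 8.08e-08) and ganglion over cerebellum 4.02 ± 0.57 (edgeR adjusted p = 3.51e-06), the largest positive value among the 41 genes in each of these comparisons. On the log2(TPM + 1) scale, on which it is low, ganglion over cerebellum was 0.95 and just short of 2-fold. Relative to spinal cord, the ganglion value was -1.52 ± 0.44 (edgeR adjusted p = 0.00724), and -1.28 without the 4 libraries highest in skeletal muscle genes, ganglion replicate 1 and spinal cord replicates 1, 3 and 5 (edgeR adjusted p = 0.09), where it was not called. Skeletal muscle genes, 3 in the table and none at 0, summed to 57.0 to 3943 CPM in the ganglion, 124 to 1416 in the spinal cord and 13.6 to 26.0 in the cerebellum. The basement membrane netrin gene ntn4 had 18.1 CPM (10.1 to 33.2) in the ganglion, 6.56 CPM (5.64 to 10.3) in the spinal cord and 10.8 CPM (9.57 to 15.4) in the cerebellum, with overlap between the ranges. Ganglion over spinal cord was 1.51 ± 0.27 (edgeR adjusted p = 9.17e-05), with 6 of 6 ganglion libraries above the spinal cord mean, a call lost on the log2(TPM + 1) scale.

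The netrin-G genes code for lipid-anchored relatives of netrins that bind LRRC4-family proteins at synapses instead of Dcc. The gene ntng2 stood at 91.3 CPM (47.1 to 105) in the ganglion, 10.7 CPM (6.26 to 15.3) in the spinal cord and 114 CPM (85.7 to 133) in the cerebellum. Ganglion and cerebellum overlapped and lay above every spinal cord library. The difference of ganglion over spinal cord was 3.05 ± 0.23 (edgeR adjusted p = 1.76e-09), the largest positive value of the 41 genes in that comparison, and spinal cord over cerebellum -3.41 ± 0.24 (edgeR adjusted p = 2.93e-10). The rare ntng1, with 310 counts in all, had 0.120 CPM (0 to 0.266) in the ganglion, 3.09 CPM (1.22 to 7.39) in the spinal cord and 0.721 CPM (0.313 to 1.06) in the cerebellum, without overlap between any pair of tissues. It was lower in ganglion than in spinal cord libraries, at -4.47 ± 0.57 (edgeR adjusted p = 2.09e-06) and than in the cerebellum at -2.31 ± 0.59 (edgeR adjusted p = 0.00161).

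Of the 3 ephrin genes, efnb1 and efna3 were higher in the ganglion than in both other tissues. The transmembrane ligand gene efnb1 stood at 53.1 CPM (39.3 to 404) in the ganglion, 29.4 CPM (23.1 to 34.7) in the spinal cord and 37.3 CPM (30.6 to 42.1) in the cerebellum. Ganglion replicate 5 had 404 CPM and replicate 2 had 158 CPM, against 39.3 to 53.2 CPM in the other 4. Its fold change of ganglion over cerebellum was 1.797 ± 0.45 (edgeR adjusted p = 0.00139) and ganglion over spinal cord 2.11 ± 0.45 (edgeR adjusted p = 0.000663), with all 6 ganglion libraries above both means. Without replicates 2 and 5 these were 0.42 (edgeR adjusted p = 0.00918) and 0.74 (edgeR adjusted p = 0.000183), in the same direction but short of 2-fold. The first was also short of 2-fold without replicate 5 alone, at 0.96, and as log2(TPM + 1) it was 0.58 and not called.

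The lipid-anchored ligand gene efna3 had 31.0 CPM (14.0 to 47.4) in the ganglion, 14.1 CPM (6.84 to 17.9) in the spinal cord and 10.4 CPM (7.81 to 15.8) in the cerebellum. The ganglion libraries spread widely, and the lowest overlapped the highest of both other tissues. Relative to cerebellum, the ganglion value was 1.49 ± 0.29 (edgeR adjusted p = 0.00015) and ganglion over spinal cord 1.20 ± 0.29 (edgeR adjusted p = 0.00181), with 6 of 6 ganglion libraries above either mean. Without ganglion replicates 2 and 5 the value against the spinal cord was 0.84 and not called, and neither call held on the log2(TPM + 1) scale. The third, efnb3, which in mouse forms a midline barrier in the spinal cord, had 5.08 CPM (2.03 to 8.61) in the ganglion, 9.94 CPM (7.56 to 12.5) in the spinal cord and 9.27 CPM (7.68 to 12.9) in the cerebellum. Its values of -0.95 ± 0.27 against the cerebellum (edgeR adjusted p = 0.0037) and -0.98 ± 0.27 against the spinal cord (edgeR adjusted p = 0.00468) were just short of 2-fold. They were past it, at -1.003 and -1.04, with the replicate number as a block. Without ganglion replicates 2 and 5 both were called lower, at -1.18 (edgeR adjusted p = 0.000604) and -1.21 (edgeR adjusted p = 0.000911). Both were also called without replicate 5 alone, at -1.16 and -1.19, and as log2(TPM + 1), at -1.17 and -1.02. Of 25 alternative settings, 4 called the value against the cerebellum and 8 the value against the spinal cord.

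The Eph receptors did not share a direction. For epha4, the receptor through which ephrins repel motor axons in mouse, the level was 1.71 CPM (0 to 4.12) in the ganglion, 17.5 CPM (9.34 to 20.03) in the spinal cord and 7.05 CPM (5.68 to 9.59) in the cerebellum. Ganglion libraries lay below both other tissues, whose ranges overlapped slightly. Its fold change of ganglion over spinal cord was -3.13 ± 0.50 (edgeR adjusted p = 2.7e-05) and ganglion over cerebellum -2.01 ± 0.48 (edgeR adjusted p = 0.00101). Spinal cord over cerebellum was 1.12 ± 0.45 (edgeR adjusted p = 0.034). That call was lost when any of 8 libraries was left out alone, namely cerebellum replicates 1 to 4 or spinal cord replicates 2, 3, 4 or 6, with values of 1.02 to 1.12. It was also lost on the log2(TPM + 1) scale, at 0.77.

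In the other direction, epha6 stood at 6.31 CPM (2.48 to 7.91) in the ganglion, 2.14 CPM (1.32 to 3.36) in the spinal cord and 0.758 CPM (0.141 to 1.46) in the cerebellum. It was higher in the ganglion than in the cerebellum at 3.06 ± 0.46 (edgeR adjusted p = 6.67e-06), without overlap, and than in the spinal cord at 1.47 ± 0.42 (edgeR adjusted p = 0.00679), with overlap. Relative to spinal cord, the ganglion value was 1.07 without the 4 libraries highest in skeletal muscle genes (edgeR adjusted p = 0.148) and 0.64 on the log2(TPM + 1) scale, not called in either. The receptor gene epha10, whose protein lacks kinase activity, had 0.0996 CPM (0 to 0.252) in the ganglion, 0.795 CPM (0.501 to 2.43) in the spinal cord and 4.71 CPM (3.44 to 7.68) in the cerebellum, with no overlap. The counts behind these levels were 8, 78 and 479 over the 6 libraries of each tissue in that order. Ganglion over cerebellum was -5.32 ± 0.52 (edgeR adjusted p = 2.48e-08), the largest negative value of the 41 genes in that comparison. With so few ganglion counts its size is uncertain. Ganglion over spinal cord was -3.01 ± 0.53 (edgeR adjusted p = 8.72e-05), a call lost on the log2(TPM + 1) scale. The gene epha7 was highest of the Eph genes by mean TPM over all 18 libraries. In the spinal cord its median TPM was below that of epha4, 8.68 against 9.83, with overlapping ranges. The level of epha7 was 21.1 CPM (16.9 to 32.4) in the ganglion, 26.1 CPM (23.0 to 32.5) in the spinal cord and 13.0 CPM (8.95 to 17.1) in the cerebellum. Its only call, spinal cord over cerebellum at 1.02 ± 0.18 (edgeR adjusted p = 8.12e-05), lay at the 2-fold limit. It was short of the limit with DESeq2 size factors, at 0.99, in the DESeq2 Wald test, at 0.98, and on the log2(TPM + 1) scale, at 0.71. It was also short of it in 7 fits that left out 1 library each, among them cerebellum replicate 2 at 0.89.

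The gene rgmb codes for a lipid-anchored protein that binds neogenin and bone morphogenetic proteins. It stood at 46.5 CPM (20.8 to 71.0) in the ganglion, 37.6 CPM (25.4 to 45.1) in the spinal cord and 19.6 CPM (16.9 to 25.0) in the cerebellum. The ganglion-to-cerebellum difference was 1.27 ± 0.23 (edgeR adjusted p = 5.93e-05), with overlap but all 6 ganglion libraries above the cerebellum mean, and this call was lost on the log2(TPM + 1) scale. The unrelated unc50 had 69.7 CPM (60.8 to 77.9) in the ganglion, 66.8 CPM (57.5 to 74.1) in the spinal cord and 96.3 CPM (76.1 to 126) in the cerebellum, and none of its differences in counts reached 2-fold.

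Within the ganglion, replicates 2 and 5 stood apart in many tested genes, a pattern not particular to the guidance genes. In both libraries 6 of the 41 genes lay above the other 4 ganglion libraries, as did 22.5% of all tested genes, and 14 lay below them, as did 26% of all. Above were slit2, efnb1, efna3, ntn4, nrp1 and plxnb2. Below were the ligand genes sema3a, sema3e, sema3g, sema4g, sema5b, sema6c, slit1, slit3 and ntn1 and the receptor or receptor-binding genes plxna3, epha4, epha6, robo4 and rgmb. For sema5b replicates 2 and 5 had 1.18 and 0.783 CPM, against 8.16 to 14.9 CPM in the other 4. For plxna3 they had 1.30 and 1.57 CPM, against 4.63 to 8.59 CPM. Schwann and satellite glia genes, 7 in the table with none at 0, summed to 11029 and 23473 CPM in replicates 2 and 5, against 5940 to 9596 CPM in the others. Connective tissue genes, 7 with none at 0, summed to 1031 and 2138 CPM in the same libraries, against 552 to 1215 CPM in the others, so that only replicate 5 lay above the rest. Sensory neuron genes, 8 with none at 0, were also higher in both libraries, with 1762 and 1695 CPM against 945 to 1433 CPM, as were astroglia and radial glia genes, with 2330.1 and 2062 CPM against 1442 to 1677 CPM. Leukocyte genes, 4 with none at 0, summed to 5188 and 12744 CPM in replicates 2 and 5, against 3273 to 6235 CPM in the others. For these too only replicate 5 lay above the rest. The part of any of these cell types in the values was not tested. The median SD of log2(CPM + 1) over the 41 genes was 0.41 in the ganglion, 0.29 in the spinal cord and 0.24 in the cerebellum, and over all tested genes 0.46, 0.27 and 0.25.

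**Figure D5:**
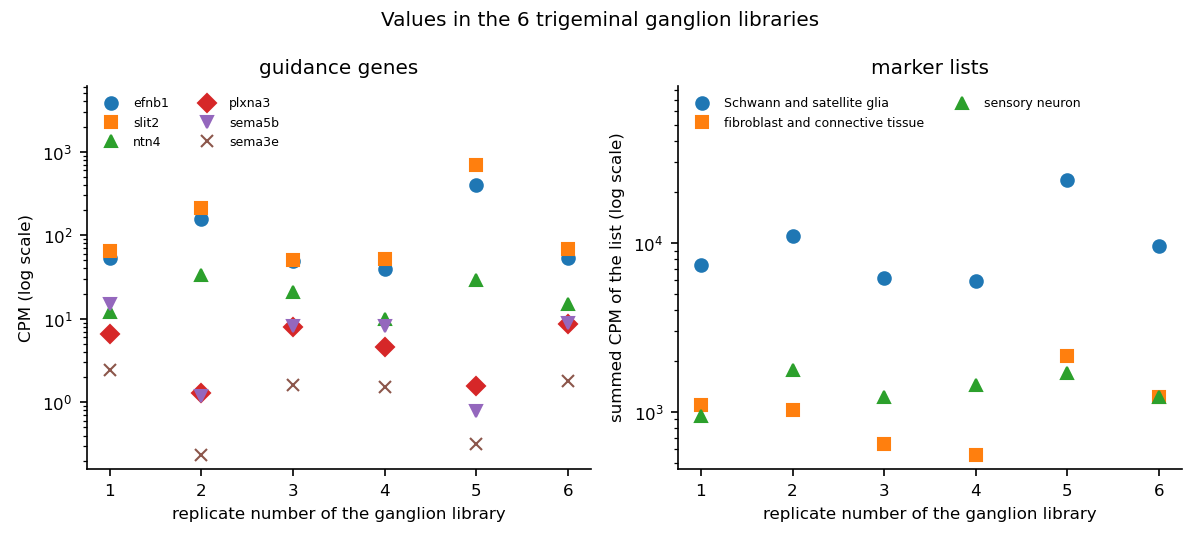
Left, CPM on a log axis of 6 guidance genes in each ganglion library by replicate number. Right, summed CPM on a log axis of marker lists in the same libraries. In replicates 2 and 5 efnb1, slit2 and ntn4 are highest and plxna3, sema5b and sema3e lowest. The Schwann and satellite glia list and the sensory neuron list are both highest in these libraries.

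Other genes of the same pathways, listed by their known roles, were counted by the same test. Of 27 effector genes that act inside the cell, 7 were higher and 5 lower in the ganglion than in the cerebellum, and 9 were higher and 3 lower in the spinal cord than in the cerebellum. Against the spinal cord 9 of them were lower in the ganglion. Of all tested genes 29.6% were higher and 22.3% lower for ganglion over cerebellum, 28.9% and 16.3% for spinal cord over cerebellum, and 17.3% were lower for ganglion over spinal cord. The median fold change of the 27 was 0.24 for ganglion over cerebellum, -0.31 for ganglion over spinal cord and 0.68 for spinal cord over cerebellum. Named from this list are the 3 called genes with the largest absolute change, so they are its extremes. The gene ngef, whose product ephexin acts downstream of Eph receptors, averaged 1.41 CPM in ganglion and 31.6 CPM in cerebellum libraries (-4.42 ± 0.43, edgeR adjusted p = 2.47e-08). The chimaerin gene chn2, a Rac inhibitor, averaged 3.82 CPM in ganglion and 72.9 CPM in cerebellum libraries (-4.21 ± 0.34, edgeR adjusted p = 1.4e-09). The kinase gene pak1, a target of Rac, averaged 29.98 CPM in spinal cord and 2.74 CPM in cerebellum libraries (3.44 ± 0.46, edgeR adjusted p = 2.25e-06).

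Of 20 other surface and secreted guidance genes, 1 was higher and 9 lower in the ganglion than in the cerebellum, 1 was higher and 7 lower in ganglion over spinal cord, and 3 were higher and 5 lower in the spinal cord than in the cerebellum. Over all tested genes the shares higher and lower in these comparisons were 29.6% and 22.3%, 14.5% and 17.3%, and 28.9% and 16.3%. Over both lists the gene called higher in ganglion over spinal cord was rtn4r, the Nogo receptor gene, named here after its values were seen, averaging 43.5 CPM in ganglion and 20.4 CPM in spinal cord libraries (1.09 ± 0.14, edgeR adjusted p = 2.73e-06). The genes named next were the called ones of this list with the largest absolute change. The gene lrrc4c, whose product is the partner of netrin-G1, averaged 1.14 CPM in ganglion and 46.9 CPM in cerebellum libraries (-5.30 ± 0.28, edgeR adjusted p = 3.45e-12). Its relative lrrc4b, whose product binds the receptor phosphatase LAR, averaged 23.7 CPM in ganglion and 249.6 CPM in cerebellum libraries (-3.39 ± 0.18, edgeR adjusted p = 5.65e-12). The gene of LAR itself, ptprf, averaged 46.4 CPM in ganglion and 347 CPM in cerebellum libraries (-2.90 ± 0.15, edgeR adjusted p = 2.18e-12). Over both lists together, the log2(TPM + 1) scale gave 1 higher and 20 lower for ganglion over cerebellum, in place of 8 and 14. The shares of all genes moved too, to 15.2% higher and 35.0% lower on that scale.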

How the data were processed

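RNA sequencing libraries were compared for 3 tissues with 6 libraries each; per the labels' protocols, the kit was one for low-input RNA, and RNA was isolated with TRIzol. The authors deposited raw counts per gene and TPM values, per the file headers; the submitters' processing notes name featureCounts, Subread 2.0.1, STAR 2.7.7a, Trimmomatic 0.39 and CASAVA 1.8.2. Not given in the sources used here were genome build, annotation and strand setting, and no positions or sequences are printed. Reads from overlapping or antisense genes, and from near-identical gene copies, could not be told apart.

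Here the counts were filtered by filterByExpr, which kept 20691 genes, scaled by TMM and fitted by edgeR 4.0.16 in R 4.3.3 (quasi-likelihood F-test, all 18 libraries, 15 residual degrees of freedom), with Benjamini-Hochberg adjustment over all tested genes. The approximate SE is the absolute log2 fold change divided by the square root of F. Alternatives used limma 3.58.1 on log2(TPM + 1), with a pseudocount of 1, for genes at 1 TPM or more in 6 libraries, and DESeq2 1.42.0. Figures used Python 3.11.15 and matplotlib 3.10.9.

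Genes were named by rule: in each comparison the 4 highest and 4 lowest called members with an average log2 CPM of at least 1, the most abundant member of each family by mean TPM, and a set of textbook genes, 33 of the 42 in all. The remaining members are given for completeness of their families. The members, lists and rule were chosen with earlier results of these data known. No pair of replicates was a copy: chi-square per degree of freedom between replicates was at least 13.6. The labels number the libraries 1 to 6 per tissue without saying that a number is a fish. After removal of tissue means, same-number libraries correlated across genes at 0.117 to 0.386 between ganglion and spinal cord, 0.200 to 0.381 between spinal cord and cerebellum and 0.0802 to 0.284 between ganglion and cerebellum, so the replicate block was run as an alternative, and its value is given where it changes a call. Different-number libraries averaged -0.0435, -0.0555 and -0.0349 in that order. The best match had the same number for 5, 6 and 6 of 6 libraries, and the main fit did not use the number.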

Additional observations from a re-analysis of the deposited data

Results flagged for a closer look

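Among the 41 tested genes, 111 groups of 6 libraries could be examined for a library far from the other 5, and 9 were found. The chance rate of this test, about 1 in 20 groups, holds for independent groups of normally distributed values. Here the values were CPM without a log, and the genes share the same libraries. Whether 9 is more than chance gives therefore cannot be read from that rate. The share of such groups over all tested genes was not computed. Ganglion replicate 5 had 686 CPM of slit2, against 50.8 to 209 CPM in the others, and 404 CPM of efnb1, against 39.3 to 158 CPM. Ganglion replicate 1 had 32.4 CPM of epha7, against 16.9 to 21.8 CPM. Spinal cord replicate 5 had 7.39 CPM of ntng1, against 1.22 to 3.28 CPM, and the lowest value of robo4, 6.65 CPM against 10.2 to 11.7 CPM. Spinal cord replicate 4 had 2.43 CPM of epha10, against 0.501 to 1.18 CPM, and spinal cord replicate 2 had 10.3 CPM of ntn4, against 5.64 to 7.09 CPM. Cerebellum replicate 6 had 7.19 CPM of sema4g, against 2.72 to 3.75 CPM, and cerebellum replicate 1 had 119 CPM of slit1, against 72.6 to 87.9 CPM.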

How the results depend on the processing

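Of 81 called differences among the members, 56 kept their call in every setting that tested them. In every setting but the log2(TPM + 1) scale, on which 22 were lost, 69 kept it. The calls of ntng1 and sema3e are among the 56, though these genes were not tested on that scale. That scale also gained 5 calls, all lower in the ganglion. They were efnb3 against cerebellum at -1.17 and against spinal cord at -1.02, and unc50 against cerebellum at -1.16. The others were robo4 at -1.07 and sema6a at -1.18, both against spinal cord. The cause of the losses and gains there was not tested. On that scale the members higher and lower numbered 5 and 21 for ganglion over cerebellum, 3 and 15 for ganglion over spinal cord, and 8 and 7 for spinal cord over cerebellum, in place of 15 and 20, 8 and 16, and 14 and 8; 38 members were tested there and 41 on counts. The shares of all genes on that scale were 15.2% and 35.0%, 5.92% and 21.4%, and 19.8% and 19.1%. There 1 member was higher in the ganglion than in both other tissues and 3 were lower in the cerebellum than in both, in place of 6 and 10. The shares of all genes for these last counts were not computed on that scale. The other pathway genes higher numbered 1 for ganglion over cerebellum, 0 for ganglion over spinal cord and 7 for spinal cord over cerebellum, in place of 8, 1 and 12. Those higher in ganglion over spinal cord numbered 2 with DESeq2 size factors, in the DESeq2 Wald test, with the replicate block and without the muscle-rich libraries. Without ganglion replicates 2 and 5, 3 members were higher in the ganglion than in both. With the replicate number as a block, 1 call was lost (slit2, ganglion over cerebellum, 0.93) and 3 were gained (efnb3 against cerebellum at -1.003 and spinal cord at -1.04, and robo4 against spinal cord at -1.18).

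Leaving out 1 library at a time, members numbered 13 to 15 higher and 20 to 21 lower for ganglion over cerebellum, 8 to 9 and 16 to 20 for ganglion over spinal cord, and 12 to 15 and 6 to 9 for spinal cord over cerebellum. Members higher than in both other tissues numbered 5 to 7 for the ganglion, 4 to 7 for the spinal cord and 5 to 8 for the cerebellum, those lower in the ganglion than in both 14 to 16 and in the cerebellum 9 to 10. Other pathway genes numbered 6 to 10 higher and 14 to 15 lower, 1 to 2 and 15 to 18, and 10 to 13 and 7 to 9 in the same 3 comparisons.

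The called value that changed sign was slit2 for ganglion over cerebellum, at -0.092 without ganglion replicates 2 and 5. Uncalled values changed sign for slit2 over spinal cord (-0.67 without these, -0.18 on the log2(TPM + 1) scale, -0.081 to 1.24 leaving out 1 library), sema3c over spinal cord (-0.34 on the log2(TPM + 1) scale, -0.12 without the muscle-rich libraries, -0.020 to 0.15 leaving out 1), sema4c over spinal cord (-0.075 to 0.75), sema3e over spinal cord (-0.25 without the muscle-rich libraries), and rgmb and unc50 over spinal cord (-0.086 and -0.35 on the log2(TPM + 1) scale). For spinal cord over cerebellum they did so for efnb3 (-0.000625 in the DESeq2 Wald test, -0.15 on the log2(TPM + 1) scale, -0.053 without the muscle-rich libraries, -0.048 to 0.11 leaving out 1), sema6b (-0.040 on the log2(TPM + 1) scale, -0.11 without the muscle-rich libraries) and dcc (0.030 with the block, -0.24 to 0.16 leaving out 1). Among these uncalled values, slit2 for ganglion over spinal cord was called without ganglion replicate 3, at 1.24. Depth limits sema3d, sema4c, sema3e and ntng1, with 142, 134, 198 and 310 counts in all. It also limits the fold changes of epha10, with 8 counts over the ganglion libraries, and of ntn1, with 9 over the cerebellum libraries. The counts of genes lower in 1 tissue than in both others were added to the settings after the data were seen.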
